A study of Homo sapiens with 6 samples.

Results

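The genes that copy DNA in S phase were followed by bulk RNA sequencing in NCI-H1975, an established line from a human lung adenocarcinoma. The set holds 49 genes, listed by symbol and found by Ensembl identifier among the 60960 features of the deposited table. It comprises 6 origin licensing genes, 12 helicase genes, 20 genes of the polymerases and the fork, 5 of nucleotide supply, and 6 E2F factors and S phase kinase genes. All 49 were present and had a mean of at least 1 FPKM (counted fragments scaled to gene length and to the library's total), the minimum for testing. The groups were NCI-H1975 cells labelled siGFPT2, a small interfering RNA against GFPT2 (n = 3), and NCI-H1975 cells labelled siNC, a control small interfering RNA (n = 3). GFPT2 encodes an enzyme that feeds the hexosamine pathway. The submitters' design text gives the aim as finding genes whose expression differs between the groups. All 6 libraries come from this one established line, and the labels do not say whether replicates were separate cultures, so any p-value reflects the scatter of these samples, which may be technical. Almonertinib, EGF and an EGFR knockdown appear in the labels' extraction protocol but in no library's treatment label, and whether the cells shared such exposure is not stated.

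Before S phase, the origin recognition complex, CDC6 and CDT1 load the ring of MCM2 to MCM7 onto DNA, a step called licensing, and geminin (GMNN) restrains CDT1. CDC45 and the GINS complex then turn the ring into an active helicase, and the polymerases alpha, delta and epsilon copy the strands behind it with the sliding clamp PCNA. Many of these genes are transcribed under E2F factors, which cyclin-dependent kinases release from the retinoblastoma protein. Proliferating tumour cells commonly express them at high levels.

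RefSeq promoter windows (GRCh38.p14; 250 bases before to 50 after each start) were found for 41 of the 49 genes; MCM4, MCM5, GINS4, POLD3, RPA2, RPA3, CCNE2 and CDK2 had none. The E2F motif was searched on both strands as TTTGGCGC, TTTCCCGC, TTTGCCGC or TTTCGCGC, letters that partly overlap one another. It was present in 20 of the 41 windows (48.8%), against 3.31% of 35116 windows of all genes. The windows of all genes were not reduced to 1 per gene, as the members' were. They were not matched to the members in base composition or level. For 37 of the 41 the window's end lay near the start of an annotated transcript of the gene. Matches were found in 7 of 9 helicase windows, 7 of 17 of the polymerases and fork, 3 of 4 of the E2F factors and kinase, 2 of 6 of licensing and 1 of 5 of nucleotide supply. The CCAAT box (CCAAT) was in 56.1% of the 41 windows against 34.6% of all, and the GC box (GGGCGG) in 70.7% against 45%. The CHR element (TTTGAA or TTTAAA), known from G2 and mitosis genes, was in 12.2% against 24%. A match is a run of letters and not a shown binding site. The 6 windows below are the 120 bases before the start for genes with an E2F match there and at most 30 bases of annotated exon; capitals mark the matches, and all run 5′ to 3′ on the gene's strand.
E2F1, chr20:33686386-33686505, minus strand: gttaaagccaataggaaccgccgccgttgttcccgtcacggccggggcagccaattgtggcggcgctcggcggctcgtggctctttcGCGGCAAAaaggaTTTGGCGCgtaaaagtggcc
E2F2, chr1:23531234-23531353, minus strand: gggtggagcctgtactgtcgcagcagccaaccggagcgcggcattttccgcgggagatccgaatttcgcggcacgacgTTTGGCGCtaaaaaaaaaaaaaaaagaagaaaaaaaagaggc
E2F3, chr6:20401759-20401878, plus strand: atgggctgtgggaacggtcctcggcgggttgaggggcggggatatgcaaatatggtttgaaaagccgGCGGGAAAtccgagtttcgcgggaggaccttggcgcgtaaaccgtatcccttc
MCM6, chr2:135876444-135876563, minus strand: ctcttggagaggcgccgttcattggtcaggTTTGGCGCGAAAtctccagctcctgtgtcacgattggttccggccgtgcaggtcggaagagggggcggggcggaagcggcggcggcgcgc
PCNA, chr20:5126623-5126742, minus strand: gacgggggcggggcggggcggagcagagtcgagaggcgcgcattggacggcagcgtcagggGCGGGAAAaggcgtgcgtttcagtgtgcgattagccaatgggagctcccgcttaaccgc
POLE, chr12:132687343-132687462, minus strand: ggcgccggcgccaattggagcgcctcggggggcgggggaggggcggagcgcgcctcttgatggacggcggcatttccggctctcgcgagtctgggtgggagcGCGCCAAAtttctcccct
E2F1 and MCM6 each hold 2 matches, which in MCM6 share 4 bases, and the other genes hold 1 each. Among the 20 genes with a match anywhere in the window the median log2 fold change, siGFPT2 minus siNC, was 0.04. Among the 21 without a match it was 0.07. These medians carry no test.

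Depth lay between 22198121 and 27234880 counted fragments in siGFPT2 and between 21899321 and 24493042 in siNC, as recovered from the steps of the FPKM values. The members rested on 79 fragments (CCNE2) to 26517 fragments (MCM7) in a library. GFPT2 itself stood at 8.94, 7.58 and 8.72 FPKM in siGFPT2 against 10.1, 9.30 and 8.28 in siNC. The GFPT2 groups overlapped (log2 fold change -0.13, 95% interval -0.43 to 0.17, limma adjusted p = 0.9999; exact two-sided permutation p = 0.4, where 0.1 is the smallest possible), so the target does not separate the labels. The epithelial markers fitted the line: EPCAM, KRT7, KRT8, KRT18, KRT19, CDH1, EGFR and NKX2-1 lay between 11.2 and 677 FPKM in every library. Of the 6 fibroblast markers 4 stayed under 1 FPKM in all libraries, as did 5 of 6 leukocyte markers (MS4A1 was listed at 0) and all 4 endothelial markers. The fibroblast sum was 9.13 to 13.1 FPKM in siGFPT2 and 8.74 to 10.7 in siNC, most of it COL1A1. The endothelial sum was 0.620 to 0.954 FPKM in siGFPT2 and 0.594 to 0.744 FPKM in siNC. The part of these in any result was not tested.

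One library of each group stood apart from the rest, siGFPT2 replicate 2 and siNC replicate 3, in a way tied to transcript length. Over 10679 protein-coding features the slope of a library's log2 deviation on log10 of the longest coding mRNA was -0.57 in siGFPT2 replicate 2 and -0.91 in siNC replicate 3. The other libraries had slopes of 0.35 and 0.34 in siGFPT2 and of 0.27 and 0.52 in siNC. Results are therefore given with these libraries and without them.

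Across the whole table, 0 of 12896 tested features passed limma's test on log2(FPKM + 0.1) at an adjusted p of 0.05, a background of 0%. In bulk RNA, a difference in the share of cells in S phase and a difference in RNA per cell cannot be told apart. Among the 49 replication and S phase genes 0 passed as well, higher or lower in siGFPT2, and 0 had an unadjusted p under 0.05, where the background was 0.651%. The limma-voom fit on recovered fragments also called 0 of the 49, and 0 had an unadjusted p under 0.05. The smallest unadjusted p was 0.153, for PRIM1, and limma's adjusted p was 0.9999. The median log2 fold change of the 49 was 0.07, beside 0.03 for all features tested. Fold changes lay above 0 for 40 of the 49 (81.6%) and for 61.4% of all features. With each library centred on its median feature these shares were 28 of 49 (57.1%) and 44%. With quantile normalization they were 38 of 49 (77.6%) and 50.1%. After removal of the length trend from each library they were 39 of 49 (79.6%) and 62.3%. The counts above 0 given by subgroup below come from the main fit and have its background of 61.4%. The 95% interval excluded a 2-fold difference in either direction for 48 of the 49 genes, the exception being CCNE2 (log2 0.25, -0.58 to 1.08), and for 92.8% of all features tested. It excluded a 1.5-fold difference for 36 of the 49. The share of all features was not taken for this count, so it is not read as a trait of these genes.

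**Figure D1:**
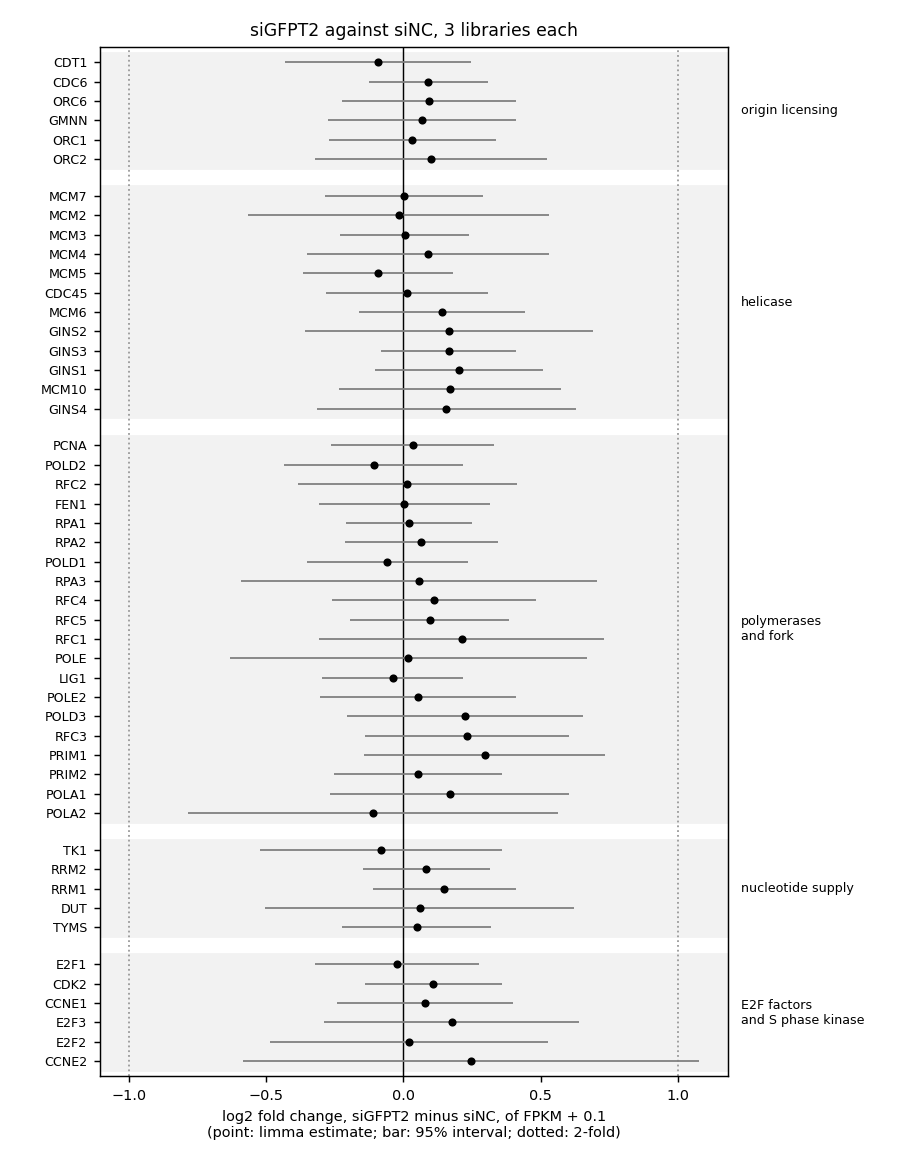
Log2 fold change of FPKM + 0.1, siGFPT2 minus siNC, for each of the 49 genes by subgroup; points are limma estimates from 3 libraries a group, bars are 95% intervals and dotted lines mark a 2-fold difference. Every interval crosses 0, and only that of CCNE2 reaches past 2-fold.

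The groups did not overlap for 2 of the 49 genes, CDC6 and GINS3, both higher in siGFPT2 (background 2.16% of features in that direction), and for 0 in the other direction (background 1.36%; 3.53% in either direction). CDC6 (ENSG00000094804; GENCODE 29, GRCh38, chr17:40287633-40304657, plus strand), the loader of the MCM ring, stood at 16.5, 15.9 and 16.7 FPKM in siGFPT2 against 15.2, 15.4 and 15.4 in siNC. All siGFPT2 libraries were thus above all siNC libraries, by a small margin. Its log2 fold change was 0.09 ± 0.09 (SE; 95% interval -0.13 to 0.31; limma adjusted p = 0.9999), with an exact permutation p of 0.1, the smallest that 3 against 3 samples allow. GINS3 (ENSG00000181938; chr16:58295080-58406144, plus strand), a subunit of the GINS complex, stood at 7.64, 8.40 and 7.73 FPKM in siGFPT2 against 6.78, 7.0 and 7.37 in siNC. Its log2 fold change was 0.17 ± 0.10 (SE; -0.08 to 0.41; limma adjusted p = 0.9999; exact permutation p = 0.1). An exon of a gene on the opposite strand overlaps 10.9% of the exon bases of GINS3, and the labels do not say whether counting used strand.

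Of the origin licensing genes, 5 of 6 had fold changes above 0, with a median of 0.08, and 0 passed the test. CDT1, which loads the helicase together with CDC6, had the highest mean FPKM of these genes. It stood at 37.7, 46.4 and 35.4 FPKM in siGFPT2 against 43.4, 37.7 and 45.8 in siNC. The groups overlapped throughout (log2 -0.09, -0.43 to 0.25). ORC6, a subunit of the origin recognition complex, was at 11.4, 12.2 and 11.8 FPKM in siGFPT2 against 9.54, 11 and 12.8 in siNC. The siGFPT2 values of ORC6 lay inside the wider siNC range (log2 0.09, -0.22 to 0.41). GMNN, the inhibitor of CDT1, averaged 11.2 ± 0.462 FPKM in siGFPT2 and 10.7 ± 1.90 in siNC (SD, n = 3 each). The ratio of CDT1 to GMNN FPKM within a library was 3.56 ± 0.408 in siGFPT2 and 3.98 ± 0.473 in siNC (SD, n = 3 each; exact permutation p = 0.4). The size of this ratio rests on the gene lengths used, and that of CDT1 was not settled. ORC1 and ORC2, the other subunits listed, had log2 fold changes of 0.03 and 0.10. By mean FPKM over the 6 libraries the order was CDT1 (41.0), CDC6 (15.8), ORC6 (11.5), GMNN (10.9), ORC1 (9.43) and ORC2 (4.14 FPKM). The ranges of ORC6, GMNN and ORC1 ran into each other, and the remaining steps did not overlap. This order changes with the gene lengths used, as given below.

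Of the helicase genes, 10 of 12 lay above 0, with a median log2 value of 0.11, and 0 passed the test. MCM7 (ENSG00000166508; chr7:100092728-100101940, minus strand), a subunit of the replicative ring, stood at 197, 222 and 195 FPKM in siGFPT2 against 214, 185 and 214 in siNC. Its groups overlapped and its log2 fold change was 0.0031 (-0.28 to 0.29), which turned to -0.05 with each library centred on its median. MCM2, another subunit of the ring, stood at 53.6, 42.7 and 49.96 FPKM in siGFPT2 against 63.3, 53.7 and 34.8 in siNC. The lowest MCM2 value of each group came from the library that stands apart (log2 -0.02, -0.56 to 0.53). GINS1, of the GINS complex, was at 7.92, 6.90 and 8.49 FPKM in siGFPT2 against 6.32, 7.44 and 6.46 in siNC, and the groups overlapped through siGFPT2 replicate 2 (log2 0.20, -0.10 to 0.51). MCM10, which helps to start the active helicase, had a log2 fold change of 0.17 and CDC45, which joins the ring on activation, 0.01. The remaining subunits of the ring had log2 fold changes of 0.0048 for MCM3, 0.09 for MCM4, -0.09 for MCM5 and 0.14 for MCM6. GINS2 stood at 17, 22.3 and 18.2 FPKM in siGFPT2 against 14.2, 14.5 and 23.5 in siNC. Without siNC replicate 3 every siGFPT2 value of GINS2 would lie above the siNC values, but that library was the highest of the 6 (log2 0.17, -0.36 to 0.69). GINS4 had a log2 fold change of 0.16. The 12 helicase genes summed to 499, 506 and 497 FPKM in siGFPT2 against 528, 475 and 479 in siNC, with overlap.

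Although the ring holds its 6 subunits in equal numbers, their mRNA levels did not lie together. MCM7 averaged 205 FPKM over the 6 libraries, and MCM2 (49.7), MCM3 (48.4), MCM4 (44.4), MCM5 (38.6) and MCM6 (34.0) followed. MCM7 was 6.02 times MCM6. The range of MCM7 did not touch that of MCM2, whereas each neighbouring pair from MCM2 to MCM6 overlapped. Within a library MCM7 was 4.57 ± 1.00 times the median of the other 5 subunits in siGFPT2 and 4.82 ± 1.18 times in siNC (SD, n = 3 each; exact permutation p = 0.7). The GINS complex, also built from equal numbers of 4 subunits, ran from GINS2 at 18.3 through GINS3 at 7.48 and GINS1 at 7.25 to GINS4 at 2.78 FPKM, with overlap only between GINS3 and GINS1. Exons of AP4M1 on the opposite strand overlap 8.94% of the exon bases of MCM7.

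**Figure D2:**
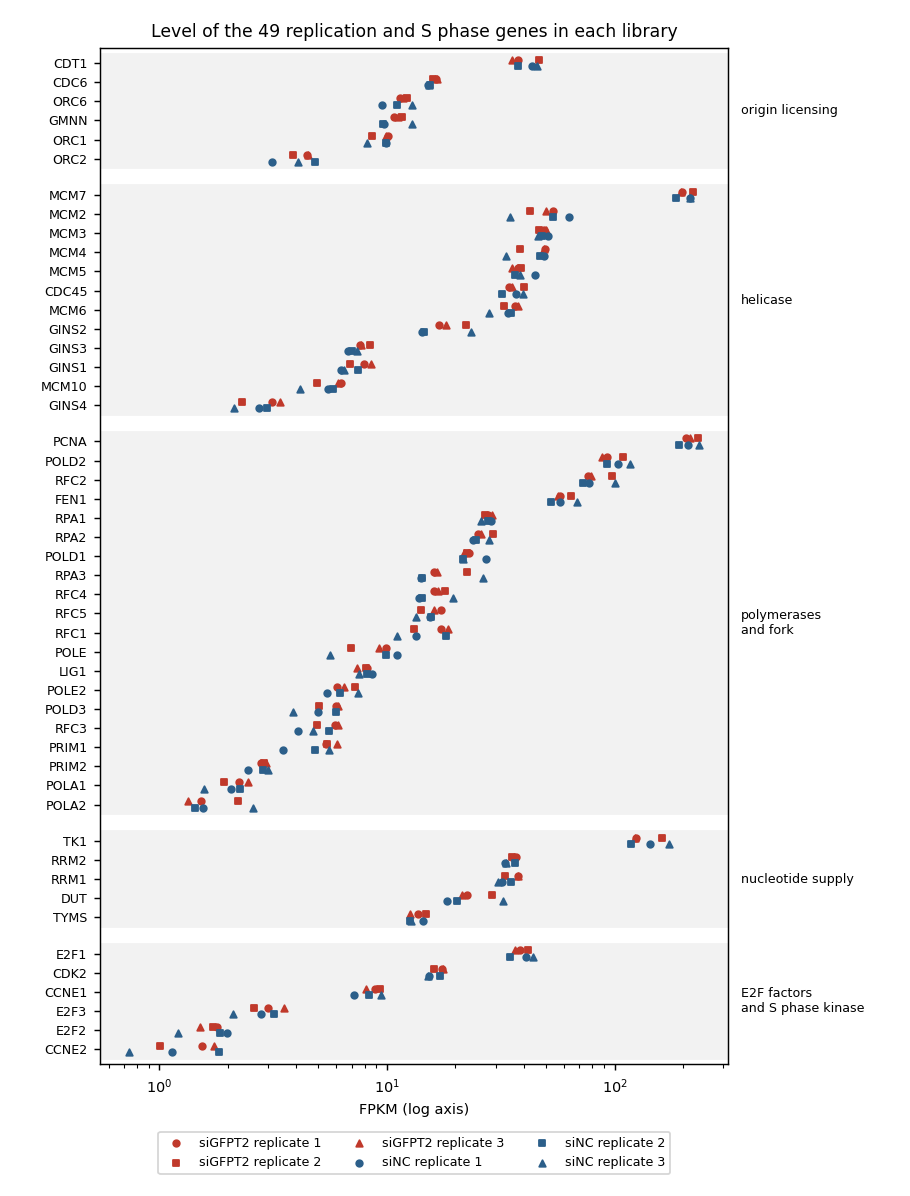
FPKM of each of the 49 genes (log axis) in the 3 siGFPT2 libraries (red) and the 3 siNC libraries (blue), with replicates 1, 2 and 3 as circles, squares and triangles, ordered by mean level in each subgroup. The colours intermingle for all genes but CDC6 and GINS3, and levels span from CCNE2 at 1.33 to PCNA at 215 FPKM on average.

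Of the 20 genes of the polymerases and the fork, 16 had fold changes above 0, with a median of 0.05, and 0 passed the test. PCNA (ENSG00000132646; chr20:5114953-5126626, minus strand), the sliding clamp, had the highest mean FPKM of all 49. It stood at 206, 233 and 214 FPKM in siGFPT2 against 210, 193 and 236 in siNC. The ranges of PCNA and MCM7 overlapped, and rescaled to mRNA length MCM7 stood higher, as given below. The log2 fold change of PCNA was 0.04 (-0.26 to 0.33), or -0.02 with each library centred on its median, and the groups overlapped. POLD2, a small subunit of polymerase delta, stood at 93.0, 109 and 88.3 FPKM in siGFPT2 against 103, 92.8 and 116 in siNC (log2 -0.11, -0.43 to 0.22). In PCNA and POLD2 alike the highest value of each group came from siGFPT2 replicate 2 and siNC replicate 3. PRIM1 (ENSG00000198056; chr12:56731596-56752373, minus strand), the catalytic subunit of the primase, stood at 5.38, 5.44 and 6.03 FPKM in siGFPT2 against 3.48, 4.85 and 5.56 in siNC. siNC replicate 1 was the low library, and siNC replicate 3 lay within the siGFPT2 range. The log2 fold change of PRIM1 was 0.30 ± 0.18 (SE; -0.14 to 0.74), and exons of other genes overlap 21.6% of its exon bases. RFC3, of the complex that loads PCNA, was at 5.91, 4.91 and 6.07 FPKM in siGFPT2 against 4.08, 5.56 and 4.76 in siNC (log2 0.23, -0.14 to 0.60), again with overlap. The other clamp loader subunits had log2 fold changes of 0.21 for RFC1, 0.01 for RFC2, 0.11 for RFC4 and 0.10 for RFC5. In polymerase alpha and primase, which lay the first primers, the values were 0.17 for POLA1, -0.11 for POLA2 and 0.05 for PRIM2. In polymerases delta and epsilon they were -0.06 for POLD1, 0.22 for POLD3, 0.02 for POLE and 0.05 for POLE2. Those of RPA1, RPA2 and RPA3, which coat single-stranded DNA, were 0.02, 0.07 and 0.06, and FEN1 and LIG1 had 0.0039 and -0.04. None passed the test, and all of these groups overlapped. The 20 genes summed to 624, 695 and 630 FPKM in siGFPT2 against 629, 594 and 710 in siNC.

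The clamp loader and the polymerases also held unequal mRNA levels among partners. RFC2 averaged 83.8 FPKM over the 6 libraries, against 16.4 for RFC4, 15.3 for RFC5, 15.3 for RFC1 and 5.21 for RFC3, and RFC4, RFC5 and RFC1 overlapped as neighbours. POLD2 at 100.5 FPKM was 18.9 times POLD3 (5.31), with POLD1, the catalytic subunit, at 22.9 between them. The single-strand binding proteins were closer: RPA1 at 27.7, RPA2 at 26.2 and RPA3 at 18.4 FPKM, each overlapping its neighbour. Polymerase epsilon had POLE, its catalytic subunit, at 8.79 and POLE2 at 6.47 FPKM. The lowest levels of this subgroup were those of polymerase alpha and primase, with PRIM1 at 5.12, PRIM2 at 2.82, POLA1 at 2.09 and POLA2 at 1.78 FPKM. FEN1, which trims the flaps of Okazaki fragments, averaged 59.5 and LIG1, which seals them, 8.0 FPKM.

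In nucleotide supply 4 of 5 fold changes lay above 0, the median log2 value was 0.06 and 0 passed the test. TK1 (ENSG00000167900; chr17:78174075-78187233, minus strand), the thymidine kinase of the salvage route, stood at 124, 162 and 123 FPKM in siGFPT2 against 143, 118 and 173 in siNC (log2 -0.08, -0.52 to 0.36). Its highest values in each group were again those of the libraries that stand apart. RRM1, the large subunit of ribonucleotide reductase, stood at 37.5, 33.2 and 37.8 FPKM in siGFPT2 against 31.9, 35.2 and 30.7 in siNC (log2 0.15, -0.11 to 0.41). RRM2, the small subunit of that enzyme, stood at 37.0, 35.4 and 36.3 FPKM in siGFPT2 against 33.0, 36.4 and 33.2 in siNC (log2 0.08, -0.15 to 0.31). In RRM1 and RRM2 siNC replicate 2 lay inside the siGFPT2 range, and the other siNC libraries lay below it. The FPKM ratio of RRM2 to RRM1 was 1.01 ± 0.0542 in siGFPT2 and 1.05 ± 0.0263 in siNC (SD, n = 3 each; exact permutation p = 0.3). TYMS, which makes thymidylate, had a log2 fold change of 0.05, and exons on the opposite strand (ENOSF1 and TYMSOS) overlap 46.6% of its exon bases. DUT, which keeps uracil out of DNA, had 0.06, and 8 annotated pseudogenes bear its name. DUT stood at 22.4, 28.8 and 21.3 FPKM in siGFPT2 against 18.4, 20.3 and 32.4 in siNC, so that the library that stands apart was the highest in each group.

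Among the E2F factors and S phase kinase genes 5 of 6 had fold changes above 0, with a median of 0.09, and 0 passed the test. E2F1 (ENSG00000101412; chr20:33675683-33686404, minus strand), an activating E2F, stood at 38.6, 41.9 and 36.5 FPKM in siGFPT2 against 40.8, 34.7 and 43.7 in siNC (log2 -0.02, -0.32 to 0.27). E2F3, another activator, was at 2.99, 2.62 and 3.54 FPKM in siGFPT2 against 2.80, 3.20 and 2.12 in siNC (log2 0.18, -0.29 to 0.64). The groups of both overlapped, and the mean of E2F1 (39.3 FPKM) was 23.4 times that of E2F2 (1.68). CDK2, the kinase of cyclin E, stood at 17.5, 16.2 and 17.6 FPKM in siGFPT2 against 15.3, 17.1 and 15.1 in siNC. The groups overlapped through siNC replicate 2 and siGFPT2 replicate 2 (log2 0.11, -0.14 to 0.36). The cyclins CCNE1 and CCNE2 averaged 8.53 and 1.33 FPKM over the 6 libraries, and the log2 fold changes of CCNE1 and of E2F2, also an activating E2F, were 0.08 and 0.02.

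FPKM divides by the length of the joined exons of a gene, and this bears on every level set side by side above. The gene length recovered from the values was over 1.5 times the longest coding mRNA of GENCODE 29 for 17 of the 49 genes. It was 15547 against 5486 bases for POLA1, 16790 against 7840 for POLE and 9153 against 3673 for RRM2. These lengths, and those of RRM1, MCM2, MCM3, MCM5, MCM6, PCNA and CDC6, are the smallest giving whole fragments. They were not read from an annotation. The joined exons of GENCODE 29 hold 6336 bases for POLA1, 16609 for POLE and 5323 for RRM2. Rescaled to the longest coding mRNA in place of the recovered length, RRM2 stood at 87.8 and RRM1 at 47.3. Whether their levels are near equal thus depends on the lengths used. On the same scale MCM7 had 291, followed by MCM5 at 79.3, MCM4 at 74.1, MCM2 at 64.7, MCM3 at 55.0 and MCM6 at 37.6. MCM7 stayed at the top of the ring on both scales, while MCM5 moved from the fifth to the second place. PCNA had 222 on this scale, below MCM7, the reverse of their order in mean FPKM. ORC6 had 29.1 and GMNN 21.5, above CDC6 at 17.5, so the order of the licensing genes also depends on the lengths used. The length of CDT1 was not settled and its level per mRNA is not given.

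The variation between libraries followed mRNA length in these genes as in the whole table. The lowest or the highest of the 6 values came from siGFPT2 replicate 2 or siNC replicate 3 for 40 of the 49 genes, beside 82.9% of all features. Set against the mean of the other 4 libraries, the 10 genes with the shortest mRNA (1262 to 1792 bases; GMNN and PCNA are the shortest) were higher in siGFPT2 replicate 2 in 10 of 10 cases, by 0.16 to 0.35 on the log2 scale. In siNC replicate 3 they were higher in 9 of 10, with TYMS the exception, from -0.07 to 0.45. The 10 genes with the longest mRNA (4183 to 7840 bases, POLE the longest) were lower in all 10 cases in both libraries, from -0.51 to -0.0047 in siGFPT2 replicate 2 and from -0.82 to -0.03 in siNC replicate 3. Across the 49 genes, which are not independent replicates, Pearson's r between deviation and log10 length was -0.64 in siGFPT2 replicate 2 and -0.67 in siNC replicate 3. It was -0.72 in both libraries across 10679 features. The slopes over the 49 genes were -0.94 and -1.48, and over all those features -0.95 and -1.28. Both sets of deviations share the same 4 libraries.

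**Figure D3:**
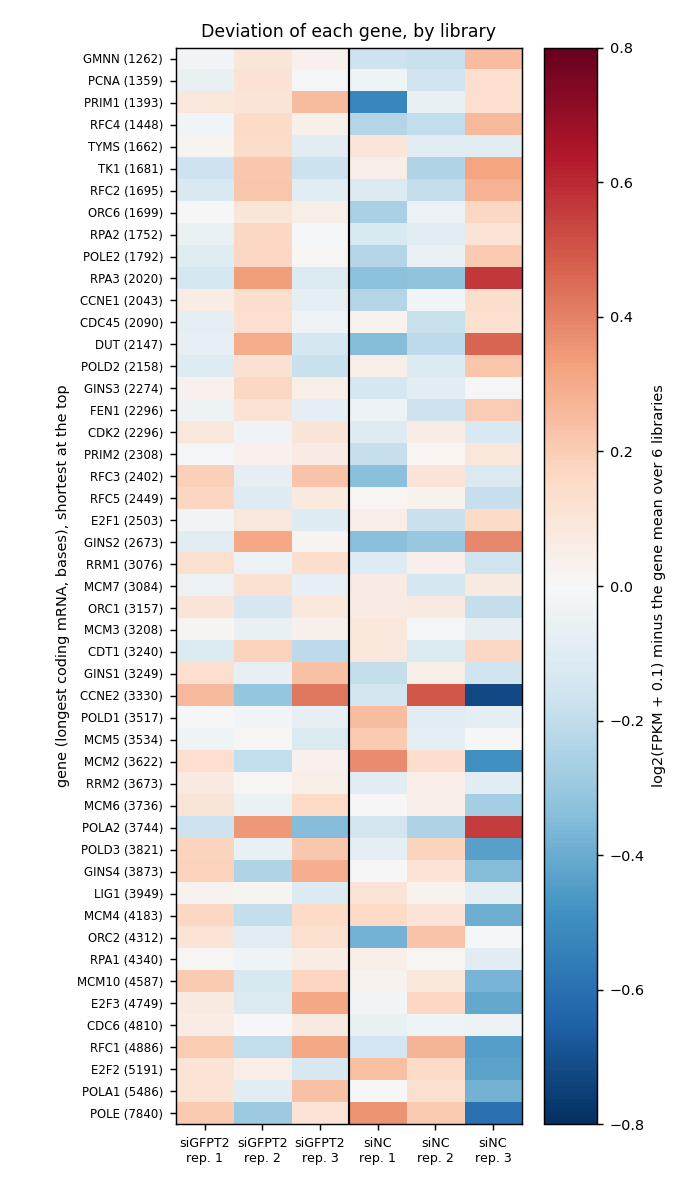
Deviation of each gene's log2(FPKM + 0.1) from its mean over the 6 libraries, with genes ordered by mRNA length, shortest at the top, and siGFPT2 libraries to the left of siNC libraries. siGFPT2 replicate 2 and siNC replicate 3 run from mostly red at the top to mostly blue at the bottom, with POLA2 and TYMS among the exceptions.

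POLE, RPA3, POLA2, CCNE2 and GINS2 are named here after their values were seen, as genes far from the other libraries or from the length trend. POLE, with the longest mRNA, stood at 9.94, 6.98 and 9.24 FPKM in siGFPT2 against 11, 9.91 and 5.63 in siNC. RPA3, the smallest subunit of the single-strand binding complex, stood at 16.2, 22.5 and 16.6 FPKM in siGFPT2 against 14.2, 14.3 and 26.5 in siNC. POLE was thus low and RPA3 high in both libraries that stand apart. POLA2 and CCNE2 deviated beyond the length trend fitted on the other features, by 0.69 and -0.49 in siGFPT2 replicate 2 and by 0.96 and -0.87 in siNC replicate 3. Exons of AP000944.2 overlap 35.1% of the exon bases of POLA2, and exons of other genes 37.1% of those of CCNE2, which rested on 79 to 177 fragments. For GINS2 the deviations beyond the trend were 0.47 and 0.55, and for POLE -0.09 and -0.23. The SD of the 49 deviations was 0.27 before and 0.21 after subtracting the trend in siGFPT2 replicate 2, and 0.41 and 0.31 in siNC replicate 3. What else differed between these libraries was not tested.

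**Figure D4:**
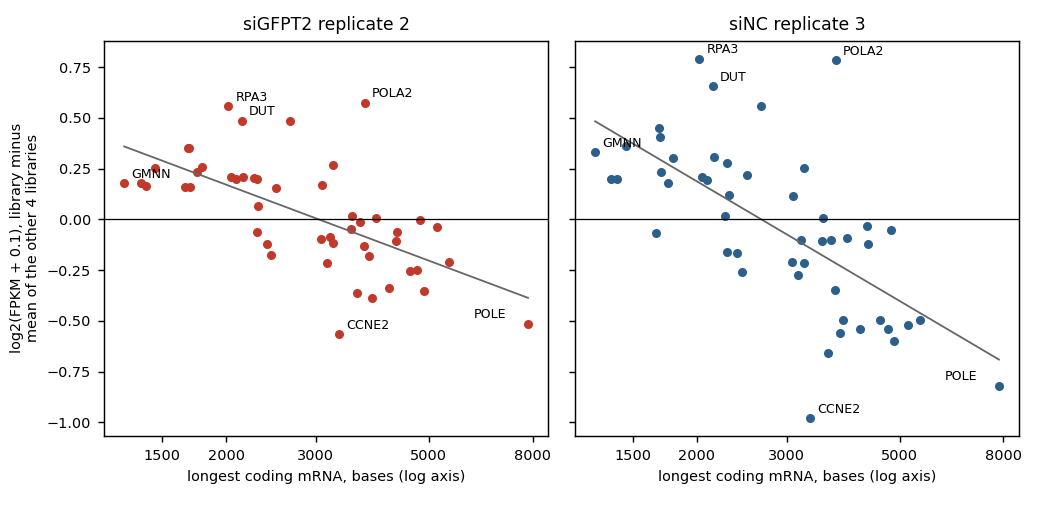
Deviation of the 49 genes from the mean of the other 4 libraries (log2 of FPKM + 0.1) against the longest coding mRNA (bases, log axis), in siGFPT2 replicate 2 (left) and siNC replicate 3 (right); the lines are least-squares fits with slopes of -0.94 and -1.48. POLE lies at the lower right, while POLA2 lies above and CCNE2 below the line in both panels.

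Without siGFPT2 replicate 2 and siNC replicate 3, which leaves 2 libraries a group, limma again called 0 of the 49 genes. Fold changes were above 0 for 36 of the 49 (73.5%) and for 57.0% of all features. The median log2 fold change was 0.10, beside 0.03 for all features. Unadjusted p was under 0.05 for 4 of the 49, all higher in siGFPT2 (background 3.99% of features in that direction): GINS2 (log2 0.29, 0.09 to 0.48), RFC4 (0.22, 0.04 to 0.41), PRIM1 (0.46, 0.06 to 0.87) and RPA3 (0.20, 0.02 to 0.38). These genes are named after their values were seen, and limma's adjusted p was 0.720 for each. The 2 libraries of each group did not overlap for 21 of the 49 genes in the direction of siGFPT2 (42.9%; background 23.9%) and for 3 in the other, CDT1, MCM2 and E2F2 (6.12%; background 18%). The 21 included CDC6, GINS1, GINS2, GINS3, GINS4, MCM4, MCM6, RFC3, RFC4, RFC5 and RRM1. These counts carry no test, and the 49 genes share the same libraries and are not independent replicates. Without siNC replicate 3 alone, GINS2, PRIM1 and RFC4 had an unadjusted p under 0.05 and were higher in siGFPT2 (background 3.26%), with a limma adjusted p of 0.810. With the length slope of each library as a covariate, 6 did, all higher in siGFPT2 (background 2.93%): GINS3, GINS2, MCM6, POLD3, RRM1 and MCM10, with log2 fold changes from 0.12 for MCM6 to 0.20 for GINS2 and a limma adjusted p of 0.773. When the length trend was subtracted from every library instead, none of the 49 had an unadjusted p under 0.05 (0 of 49; background 0.318%) and limma called 0.

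Other genes of the replication programme, in 5 lists of 60 genes, gave the same count. Of these, 58 were tested and 0 passed the test in either direction. Fold changes were above 0 for 48 of the 58, beside 61.4% of all features, and the median on the log2 scale was 0.12. The gene with the smallest p in each list was ORC5, of the origin recognition complex (log2 0.23, -0.04 to 0.51), DNA2, a nuclease and helicase of the fork (0.28, -0.24 to 0.79), ASF1A, a histone chaperone (0.31, -0.07 to 0.69), TK2, the mitochondrial thymidine kinase (0.19, -0.14 to 0.51), and E2F6, a repressive E2F (0.16, -0.11 to 0.43). ORC5 stood at 9.41, 9.72 and 8.98 FPKM in siGFPT2 against 7.15, 8.04 and 8.74 in siNC. The groups did not overlap for 5 of the 58, all higher in siGFPT2 (background 2.16% of features in that direction): ORC5, TK2, E2F6, DBF4, of the kinase that fires origins, and POLE3, a small subunit of polymerase epsilon; DBF4 and POLE3 are named after their values were seen. Among the 12 mitosis genes taken for comparison 9 lay above 0, with a median of 0.08, and 0 passed the test. CDK1, their member with the smallest p, was at 20.8, 20.4 and 22.1 FPKM in siGFPT2 against 15.7, 18.7 and 19.8 in siNC (log2 0.23, -0.06 to 0.51). CDK1 and TPX2, a spindle assembly factor named after its values were seen, were the 2 of the 12 whose groups did not overlap, both higher in siGFPT2, beside the same background of 2.16%. In level, the 49 replication genes had a median of 15.8 FPKM, beside 52.7 for the mitosis genes and 5.42 for all features tested.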

How the data were processed

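NCI-H1975 cells were profiled in 6 libraries, 3 labelled siGFPT2 and 3 labelled siNC. The values are FPKM as deposited by the authors in 1 table. HISAT2, featureCounts and DESeq2 are named, without versions, per the submitters' processing notes; the genome build is not given in the sources used here, nor is the annotation. Symbols came from a table of gene names, and coordinates, exon overlaps and mRNA lengths from GENCODE 29 (GRCh38). The test was limma 3.58.1 in R 4.3.3 (lmFit, eBayes with trend, two-sided) on log2(FPKM + 0.1), siGFPT2 minus siNC, for the 12896 features averaging 1 FPKM or more. Fold changes on this scale understate those of low genes. P-values were adjusted by Benjamini-Hochberg over all these features, with a threshold of 0.05. The fit was tested on simulated data without a length-linked shift between libraries. That does not show how it behaves with siGFPT2 replicate 2 and siNC replicate 3. Depth and fragments were recovered from the steps of the FPKM values, whole within 0.0001 fragments for 12895 of the tested features. Of the 49 genes, 14 used the exon length of GENCODE 29, and the others the smallest length giving whole fragments, which can understate the fragments. The members, gene lists and tests were chosen with earlier results of these data known. Genes given per library were the 2 most abundant and the 2 with the smallest p in each subgroup, those whose groups do not overlap, and GFPT2, 17 members in all. From each other list the gene with the smallest p was taken, which for the epithelial and fibroblast markers gave KRT19 and COL1A1, with log2 fold changes of -0.13 and 0.07; 1 marker is not reported here. GMNN, GINS2, POLE, RPA3, DUT and those so marked in the text are given beyond this rule, chosen after their values were seen. The alternatives varied the pseudocount, the minimum level, the scaling, the trend, the libraries and the terms of the fit.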

Additional observations from a re-analysis of the deposited data

How the results depend on the processing

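Over 18 alternatives, 0 features and 0 of the replication and S phase genes were called in any, and limma-voom and the length trend removal were chosen after seeing the data. The count at an unadjusted p under 0.05 was 0 with all 6 libraries, 4 without both siGFPT2 replicate 2 and siNC replicate 3, 6 with the length slope as covariate, and 0 to 3 with 1 library left out. The median log2 fold change, 0.065, was 0.012 with median centring, 0.053 with quantile normalization, 0.10 without both libraries, 0.079 with the length slope and 0.079 with the length trend removed. It ran from 0.053 to 0.077 with 1 library left out. GFPT2 ran from -0.21 to -0.060. Of 305 values for the 17 named members, 291 kept their direction. MCM7 turned to -0.050 with median centring and to -0.021 without both libraries, and PCNA to -0.018 with median centring. With 1 library left out, ranges that crossed 0 were -0.013 to 0.20 for ORC6, -0.27 to 0.17 for MCM2, -0.066 to 0.038 for MCM7, -0.035 to 0.11 for PCNA, -0.22 to 0.056 for TK1 and -0.12 to 0.049 for E2F1. Ranges that kept their direction but moved the value by over 1.5 times were -0.21 to -0.011 for CDT1, 0.12 to 0.34 for RFC3, 0.11 to 0.44 for PRIM1, -0.20 to -0.024 for POLD2, 0.059 to 0.13 for RRM2, 0.014 to 0.30 for E2F3 and 0.076 to 0.17 for CDK2. The cause was not tested. A minimum mean of 5 FPKM left out 8 of the 49 genes, and of the 17 named members only E2F3. Same-numbered libraries correlated at 0.47, -0.72 and -0.57 in their deviations from the group means. siGFPT2 replicate 2 and siNC replicate 3, which stand apart and differ in number, correlated at 0.79. Because such libraries weigh on every deviation, these values cannot show whether the numbers pair the samples. With the replicate block the median was 0.065 and 0 genes were called. CCNE2, with the fewest fragments of the 49, had the widest interval.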
